A study of Mus musculus with 7 samples.

Results

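Heat shock proteins and chaperonins were examined as a set of 46 mouse genes chosen by name: the HSP70, HSP110, HSP90, HSP40 and small heat shock protein families, their co-chaperones, the factors HSF1 and HSF2, and the 8 subunits of the cytosolic chaperonin CCT. Of these, 45 have a row among the 13280 rows of the deposited count table, and Hspb7 is not analysed here. The RNA-seq libraries came from muscle stem cells (MuSCs), the resident Pax7-expressing progenitors of skeletal muscle, isolated from hindlimb muscle of uninjured adult Gli1-CreERT2; R26-tdT mice labelled C57BL/6, 3 days after tamoxifen (TAM). In these mice Cre is driven by Gli1, a transcription factor of Hedgehog signaling, so that TAM switches on the red reporter tdT in cells that express Gli1 at that time, and all animals of both groups carried the same alleles and received TAM. Cells freed with collagenase and dispase were sorted as CD45-CD31-Sca1-VCAM1+ and split by tdT into Gli1+ MuSCs (tdT+, 4 libraries) and Gli1- MuSCs (tdT-, 3 libraries). The study's methods give the mice as a mixture of C57BL6 and 129 strains. The sources describe the replicates as biologically independent without stating if each was a single mouse or pooled animals.

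Heat shock proteins are molecular chaperones. HSP70 binds exposed hydrophobic stretches of unfolded proteins in cycles of ATP hydrolysis that are started by HSP40 (J-domain) partners and reset by nucleotide exchange factors such as HSP110 and the BAG proteins. HSP90 matures kinases and receptors, small heat shock proteins hold unfolding proteins without ATP, HSP60 with HSP10 folds proteins in mitochondria, and CCT folds actin and tubulin. HSF1, once released from chaperones by heat or other proteotoxic stress, binds repeats of the heat shock element in promoters of the inducible members, whereas the chaperones of the endoplasmic reticulum answer to the unfolded protein response through another promoter element. Quiescent MuSCs are known to change the expression of stress genes while muscle is dissociated.

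The promoters shown are of members chosen because they carry binding motifs of these responses. Sequences are from RefSeq, build GRCm38.p6, on the strand of the gene, and are taken from the 250 bases before the annotated start. In the following lines the capitals mark a heat shock element of 2 units, GAANNTTC or TTCNNGAA, and runs of capitals over 8 bases are overlapping matches.
Hspa1a: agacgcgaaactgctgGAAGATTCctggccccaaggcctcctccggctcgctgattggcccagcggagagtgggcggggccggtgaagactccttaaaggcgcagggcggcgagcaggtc
Hspa1b: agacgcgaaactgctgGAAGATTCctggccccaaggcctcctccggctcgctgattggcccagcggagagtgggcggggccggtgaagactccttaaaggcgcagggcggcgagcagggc
Hspb1: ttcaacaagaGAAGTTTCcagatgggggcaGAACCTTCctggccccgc
Hsph1: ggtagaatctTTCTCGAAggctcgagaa
Dnaja1: aaagcctctaGAAAATTCtacgaggctc
Hspe1: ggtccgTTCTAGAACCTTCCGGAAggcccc
Dnajb6: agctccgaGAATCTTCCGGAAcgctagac
In the next pair the capitals mark the endoplasmic reticulum stress element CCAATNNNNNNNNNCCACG, which in Hsp90b1 reads as its reverse complement.
Hspa5: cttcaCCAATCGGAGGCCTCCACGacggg
Hsp90b1: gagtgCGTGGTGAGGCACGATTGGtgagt

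The Hspa1a stretch lies on chromosome 17 (chr17:34972157-34972276, minus strand) and that of Hspa1b at chr17:34959239-34959358 on the same strand. They are the last 120 bases before each start and share 119 of them, and the whole windows share 247 of 250 bases. The other stretches lie at chr5:135887792-135887839 (Hspb1, plus strand), chr5:149636352-149636379 (Hsph1, minus), chr4:40722334-40722361 (Dnaja1, plus), chr1:55088053-55088082 (Hspe1, plus), chr5:29735844-29735872 (Dnajb6, plus), chr2:34772020-34772048 (Hspa5, plus) and chr10:86705528-86705556 (Hsp90b1, minus). Those of Hsph1, Dnaja1, Dnajb6 and Hspa5 reach into the gene as GENCODE bounds it, since other annotated starts lie further upstream. The Hspe1 stretch lies within the annotated Hspd1 locus, which runs in the opposite direction and overlaps Hspe1 by 112 exon bases. A promoter was matched for 37 members, 1 promoter each. The other 8 (Hspa8, Hsp90aa1, Hsp90ab1, Hspa13, Hspa9, Cryab, Hsf1 and Cct4) had none listed and were not searched. A heat shock element of 2 units on either strand was present in 8 of the 37 matched promoters (the 7 shown and Cct5), and in 12.8% of the 32851 mouse promoters searched. Those promoters belong to 27025 genes, some with more than 1. Dnajb1, Dnaja4, Bag3 and Hspd1 were among the matched members without this element in the window. The 3-unit element GAANNTTCNNGAA was found in 2 of 37 (Hspe1 and Dnajb6), against 0.466% of all promoters. The endoplasmic reticulum stress element was found in 2 of 37, against 0.113% of all. CCAAT alone was in 19 of 37 and in 33.8% of all, and TATAAA in 1 of 37 and in 12.4% of all. These are matches of letters on either strand within the window and not measured binding.

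The libraries hold between 10595181 and 19662721 reads assigned to genes, and reads were detected for 8579 to 10016 genes in Gli1+ MuSCs and for 5471 to 10829 genes in Gli1- MuSCs, the lowest number being in Gli1- replicate 2. Gli1 itself had 50.2, 30.6, 7.26 and 18.3 CPM (reads per 1e+06 assigned reads) in Gli1+ MuSCs, against 11.6, 0 and 0 CPM in Gli1- MuSCs, with 1 Gli1- library above the lowest Gli1+ library. The 12 MuSC markers, Pax7 among them, were detected in all 7 libraries, with summed levels of 5034 to 7167 CPM in Gli1+ MuSCs and 5901 to 7854 CPM in Gli1- MuSCs. No library looked like one deposited a second time, the smallest chi-square over degrees of freedom within a group being 112. CPM values are scaled by the trimmed mean of M-values (TMM) throughout, and mean values are given with the SD over 4 Gli1+ and 3 Gli1- libraries.

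No heat shock or chaperonin gene was called as different between Gli1+ and Gli1- MuSCs by edgeR, and neither was any other gene of the table. With edgeR's quasi-likelihood test, two-sided and Benjamini-Hochberg adjusted over 11134 genes, 0 of the 45 members passed an adjusted p of 0.05, and each member had an adjusted p of 1.00. The same fit called 0% of all genes. At an unadjusted p under 0.05, 0 members were higher in Gli1+ MuSCs and 0 were lower, against 1.53% and 0.611% of all genes, and DESeq2, which called 66 genes of the table at an adjusted p of 0.05, called 0 members and had 1 member, Hspb6, at an unadjusted p under 0.05. Hspb6 met the minimum of reads only through 2 Gli1+ libraries, so its p is no support for a difference. The libraries of the groups overlapped for all 45 members. Among all genes 2.87% had all Gli1+ values above all Gli1- values and 0.934% had all of them below. A set of 45 genes would hold few such genes at these shares or at those above for the unadjusted p. The log2 fold change was above 0 for 30 members and below 0 for 15, with a median of 0.17, beside 65.3% of all genes above 0 and a median of 0.30. Among genes with at least 5 reads in all libraries, the median was 0.14 for 39 members and 0.02 for all genes. Which median was the higher thus depended on the filter. The standard error of a member's log2 fold change had a median of 0.42, so that the intervals of most members leave room for differences in either direction.

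**Figure D1:**
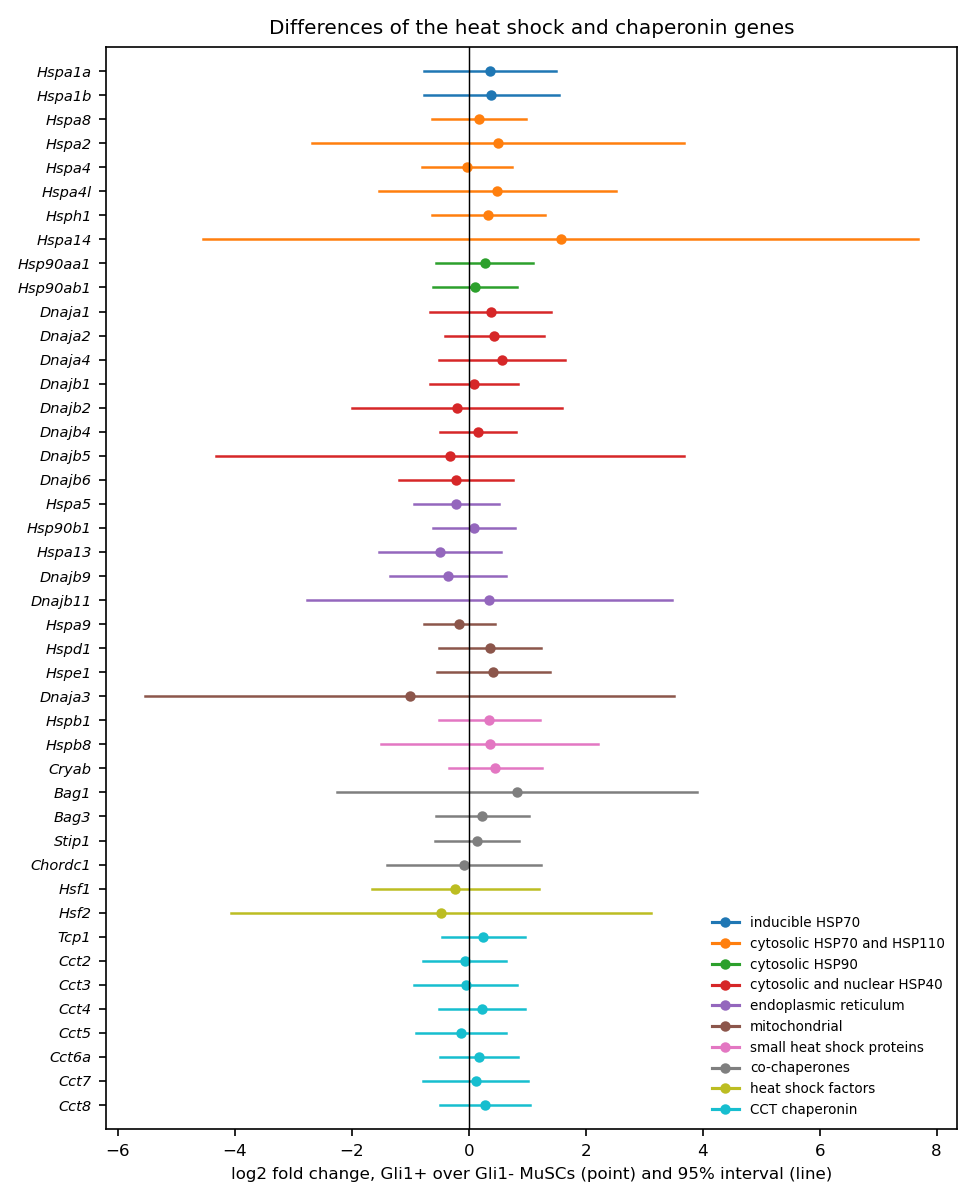
Log2 fold change of Gli1+ over Gli1- MuSCs (horizontal axis, points) with its 95% interval (lines) from edgeR for 44 members, colored by role, with Hspb6, whose interval runs up to 19.80, left out for scale. Every interval crosses 0, and those of the CCT subunits lie between -0.93 and 1.05.

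The total share of reads held by these genes differed between libraries. Heat shock and chaperonin genes took 15.6%, 16.7%, 7.61% and 10.1% of the assigned reads in Gli1+ MuSCs, against 15.5%, 8.74% and 8.18% in Gli1- MuSCs. Gli1+ replicates 1 and 2 and Gli1- replicate 1 were thus high, and libraries of both groups lay at each end of the range. Hspa1a and Hspa1b together took 9.57%, 10.6%, 3.65% and 4.96% of the reads in Gli1+ MuSCs, against 9.60%, 3.81% and 3.80% in Gli1- MuSCs. Without this pair, the remaining members held 6.00%, 6.10%, 3.96% and 5.16% in Gli1+ MuSCs, against 5.94%, 4.92% and 4.38% in Gli1- MuSCs. The pair thus held more than the remaining members in those 3 high libraries and less in the other 4.

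**Figure D2:**
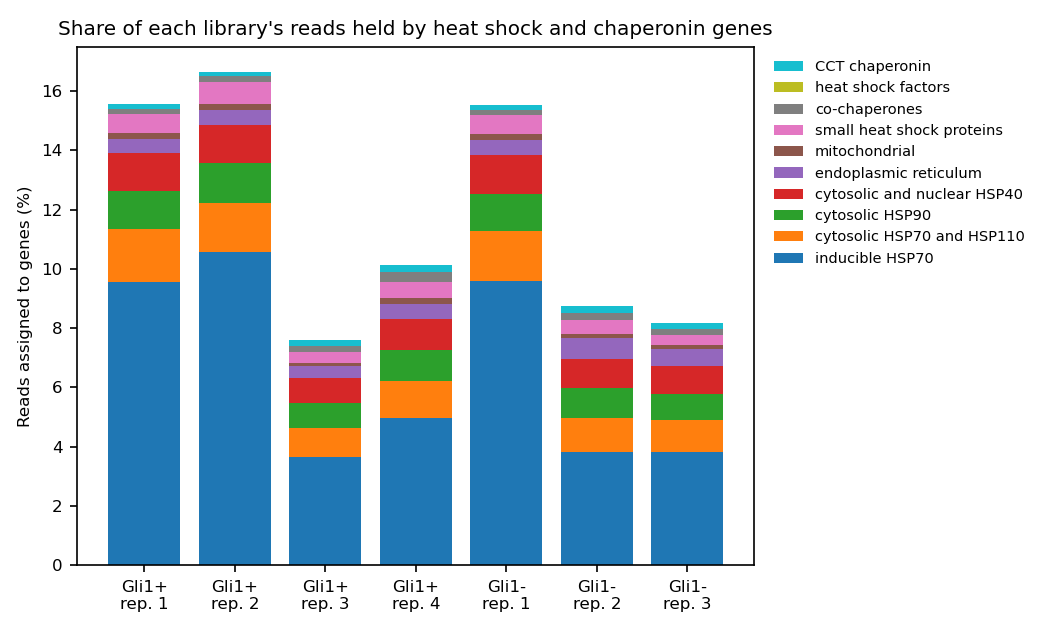
Percent of the reads assigned to genes in each library (vertical axis) that fell on heat shock and chaperonin genes, stacked by role, for the 4 Gli1+ and then the 3 Gli1- libraries. The inducible HSP70 pair is the widest band in every library, from 3.65% in Gli1+ replicate 3 to 10.6% in Gli1+ replicate 2.

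The inducible HSP70 genes Hspa1a (chr17:34969190-34972156, minus strand, GRCm38) and Hspa1b (chr17:34956436-34959238, minus strand) encode near-identical proteins that refold damaged proteins after stress. They are neighbors 9951 bases apart. Hspa1b had the most reads of any gene in Gli1+ replicates 1 and 2 and Gli1- replicate 1, and was at rank 2 or 3 in the other 4 libraries. Its level was 50724, 55754, 17890 and 29574 CPM in Gli1+ MuSCs, against 52994, 17016 and 18356 CPM in Gli1- MuSCs. A high and a low Gli1- library thus bracket the intermediate Gli1+ replicate 4. The log2 fold change was 0.39 (SE 0.53, 95% interval -0.77 to 1.54), smaller than the spread within each group. Hspa1a had 45203, 49929, 17187 and 29356 CPM in Gli1+ MuSCs, against 48987, 16497 and 17178 CPM in Gli1- MuSCs, with a log2 fold change of 0.36 (SE 0.52). Its libraries fell in the same pattern. Of the 31-base stretches of Hspa1a, 63.8% also occur in Hspa1b, and 67.6% of those of Hspa1b occur in Hspa1a, so the division of reads between the pair is uncertain. The ratio of Hspa1a to Hspa1b was 0.89 to 0.99 over the 7 libraries. Summed to 1 feature, they gave a log2 fold change of 0.37 (SE 0.53). In addition, 564 exon bases of Hspa1a overlap Gm20481 on the other strand, and no source used here gives the strand of counting.

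Hspa8, the constitutive HSP70 that serves folding and clathrin uncoating in unstressed cells, varied less. It had 11308, 11177, 7018 and 10348 CPM in Gli1+ MuSCs, against 12127, 7441 and 6971 CPM in Gli1- MuSCs, a log2 fold change of 0.17 (SE 0.37). Ratios between genes are ratios of CPM without correction for length, and serve to compare libraries. The inducible pair summed to between 4.50 and 9.46 times Hspa8, this ratio being 8.48, 9.46, 5.00 and 5.69 in Gli1+ MuSCs and 8.41, 4.50 and 5.10 in Gli1- MuSCs. The ratio was therefore highest in the same 3 libraries, of both groups, in which the pair was highest. Hsph1, the HSP110 exchange factor for HSP70, had 6054, 5438, 1953 and 4229 CPM in Gli1+ MuSCs, against 5303, 2192 and 3051 CPM in Gli1- MuSCs, and a log2 fold change of 0.33 (SE 0.45). Its paralog Hspa4, another exchange factor of this family, showed another order, with 203, 155, 232 and 241 CPM in Gli1+ MuSCs, against 149, 326 and 160 CPM in Gli1- MuSCs. Hsph1 over Hspa4 ran from 6.73 to 35.5 across the libraries. The other members of this role were low. Hspa2, best known from male germ cells, averaged 33.8 ± 7.7 CPM in Gli1+ MuSCs and 23.9 ± 6.9 CPM in Gli1- MuSCs. Hspa4l, another HSP110-type gene, averaged 49.5 ± 23.0 CPM in Gli1+ MuSCs and 35.4 ± 5.5 CPM in Gli1- MuSCs. Hspa14, a ribosome-associated HSP70, had 4.25 to 26.0 CPM in Gli1+ MuSCs and was at 15.8, 0 and 0 CPM in Gli1- MuSCs.

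**Figure D3:**
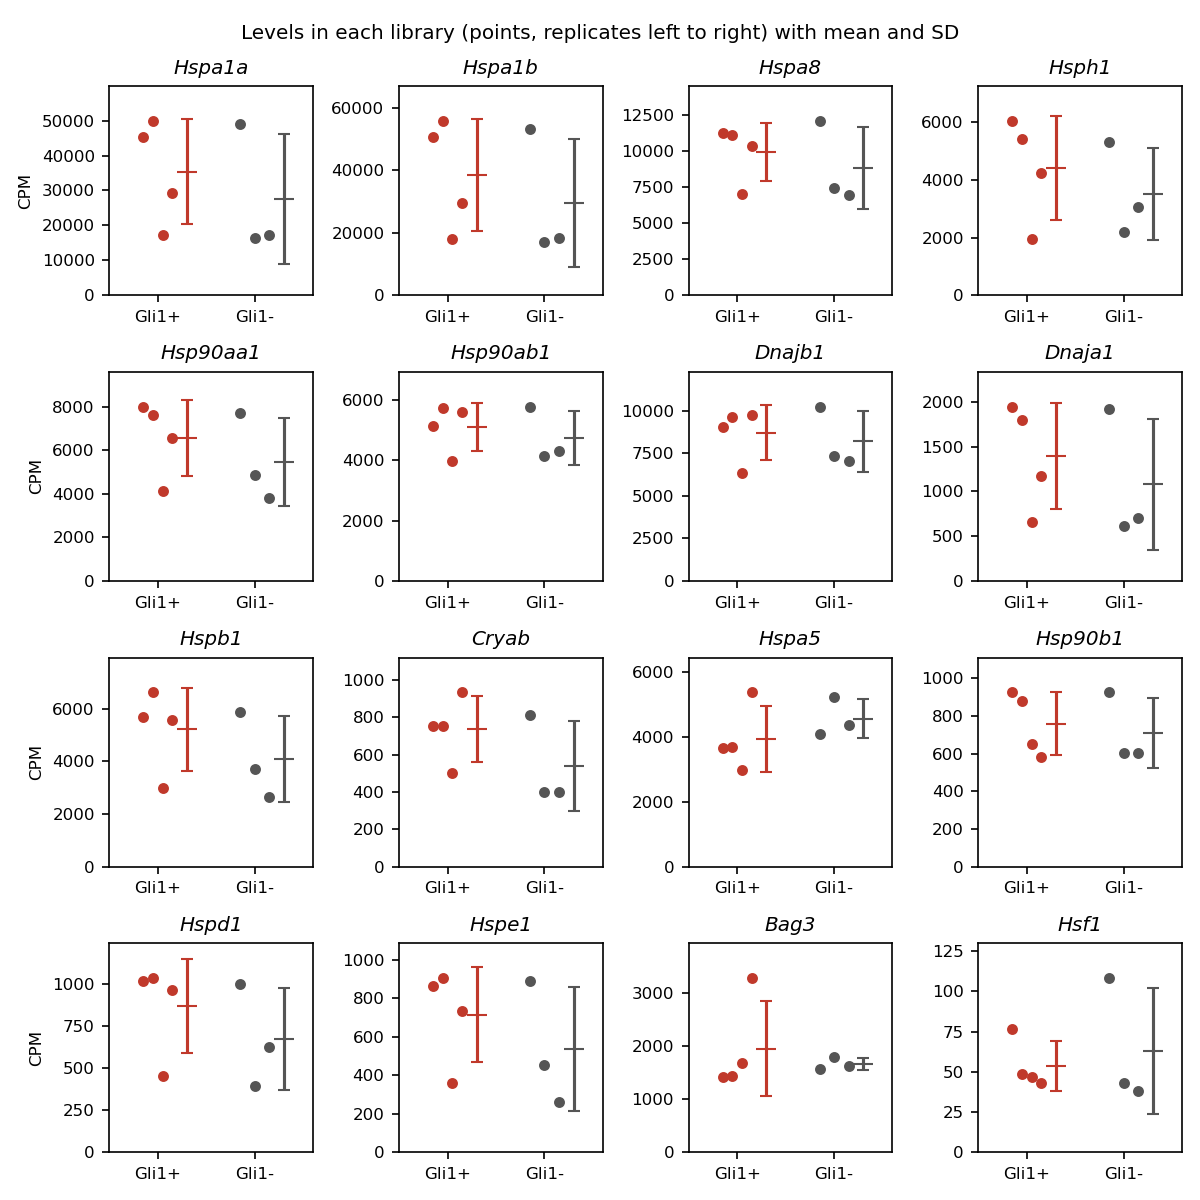
CPM (vertical axes, each from 0) of 16 members in each library, with Gli1+ MuSCs (red, 4 points in replicate order) left of Gli1- MuSCs (gray, 3 points in replicate order), and with the mean and SD beside each group. In Hspa1a, Hspa1b, Hsph1 and Dnaja1 the first Gli1- point is level with the first pair of Gli1+ points, and the third Gli1+ point lies with the other Gli1- points.

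The cytosolic HSP90 genes were abundant, and their groups overlapped. Hsp90aa1, the stress-inducible HSP90, had 8010, 7606, 4115 and 6581 CPM in Gli1+ MuSCs, against 7708, 4874 and 3796 CPM in Gli1- MuSCs (log2 fold change 0.27, SE 0.39). Hsp90ab1, the constitutive HSP90, had 5128, 5729, 3985 and 5603 CPM in Gli1+ MuSCs, against 5786, 4151 and 4311 CPM in Gli1- MuSCs (log2 fold change 0.11, SE 0.33). The highest library was 2.11 times the lowest for the inducible gene and 1.45 times for the constitutive gene. Their ratio was 1.56, 1.33, 1.03 and 1.17 in Gli1+ MuSCs and 1.33, 1.17 and 0.88 in Gli1- MuSCs.

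Among the cytosolic and nuclear HSP40 genes, Dnajb1, the main stress-inducible J-domain partner of HSP70, had 9046, 9659, 6311 and 9758 CPM in Gli1+ MuSCs, against 10240, 7322 and 7021 CPM in Gli1- MuSCs. The difference was 0.09 on the log2 scale (SE 0.35), and its highest library was 1.62 times its lowest, unlike the 3.28 times of Hspa1b. Dnaja1, a farnesylated HSP40, had 1947, 1803, 656 and 1172 CPM in Gli1+ MuSCs, against 1917, 617 and 701 CPM in Gli1- MuSCs (log2 fold change 0.37, SE 0.48). Dnaja1 was highest in the same 3 libraries as the Hspa1 pair and Dnajb1 was not, and Dnajb1 over Dnaja1 ran from 4.65 to 11.9. Dnaja4, which is also heat-inducible, had 768, 726, 282 and 860 CPM in Gli1+ MuSCs, against 826, 218 and 295 CPM in Gli1- MuSCs (log2 fold change 0.56, SE 0.50). Its highest library was 3.95 times its lowest. Dnajb4 averaged 523 ± 73.4 CPM in Gli1+ MuSCs and 470 ± 97.3 CPM in Gli1- MuSCs. Dnaja2, a relative of Dnaja1, averaged 154 ± 44.2 CPM in Gli1+ MuSCs and 114 ± 40.5 CPM in Gli1- MuSCs. Dnajb6, a suppressor of aggregation, averaged 93.5 ± 28.0 CPM in Gli1+ MuSCs and 109 ± 49.9 CPM in Gli1- MuSCs. The others were low. Dnajb2 averaged 45.3 ± 21.8 CPM in Gli1+ MuSCs and 52.0 ± 15.5 CPM in Gli1- MuSCs. Dnajb5 averaged 27.4 ± 9.6 CPM in Gli1+ MuSCs and 34.4 ± 33.8 CPM in Gli1- MuSCs, and lacked reads in Gli1- replicate 2.

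The small heat shock proteins include Hspb1 (HSP27 in human, HSP25 in mouse), which binds unfolding proteins and actin. It had 5687, 6624, 2973 and 5573 CPM in Gli1+ MuSCs, against 5877, 3719 and 2657 CPM in Gli1- MuSCs (log2 fold change 0.35, SE 0.40). Per kilobase it was the most abundant member after the Hspa1 pair. Cryab (alpha B-crystallin), abundant in muscle and lens, had 752, 753, 503 and 933 CPM in Gli1+ MuSCs, against 814, 398 and 400 CPM in Gli1- MuSCs (log2 fold change 0.45, SE 0.37). Its only overlap came from Gli1- replicate 1, which lay above 3 Gli1+ libraries. Hspb8, the partner of BAG3 in chaperone-assisted autophagy, had 24.3, 30.5, 60.4 and 102 CPM in Gli1+ MuSCs, against 49.5, 19.6 and 58.2 CPM in Gli1- MuSCs. Hspb6 (HSP20), a protein of contractile muscle, was detected in Gli1+ replicates 3 and 4 alone, at 20.98 and 8.25 CPM, and was at 0 in Gli1+ replicates 1 and 2 and in all 3 Gli1- libraries. It entered the test only through those 2 libraries. The fitted value was not past the threshold, and the groups overlap at 0.

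In the endoplasmic reticulum, Hspa5 (BiP), the main HSP70 of the lumen, had 3652, 3696, 2988 and 5365 CPM in Gli1+ MuSCs, against 4072, 5228 and 4352 CPM in Gli1- MuSCs (log2 fold change -0.21, SE 0.33). Hsp90b1 (GRP94), the lumenal HSP90, had 925, 878, 651 and 581 CPM in Gli1+ MuSCs, against 925, 603 and 605 CPM in Gli1- MuSCs (log2 fold change 0.09, SE 0.32). Although both promoters carry the stress element shown above, the order of the libraries differed between them. Hspa5 was highest in Gli1+ replicate 4, in which Hsp90b1 was lowest, and their ratio ran from 3.95 to 9.24. Hspa13, a microsomal ATPase, averaged 64.5 ± 17.9 CPM in Gli1+ MuSCs and 90.7 ± 36.4 CPM in Gli1- MuSCs. The lumenal J-domain protein Dnajb9 averaged 94.0 ± 38.9 CPM in Gli1+ MuSCs and 121 ± 54.4 CPM in Gli1- MuSCs. Dnajb11, another of these, averaged 51.6 ± 22.0 CPM in Gli1+ MuSCs and 40.4 ± 38.7 CPM in Gli1- MuSCs, and Gli1- replicate 3 lacked reads of it.

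Of the mitochondrial members, Hspd1 (HSP60) had 1020, 1038, 454 and 969 CPM in Gli1+ MuSCs, against 1001, 395 and 630 CPM in Gli1- MuSCs (log2 fold change 0.37, SE 0.40). Its lid Hspe1 (HSP10), which shares the head-to-head promoter region, had 864, 904, 361 and 732 CPM in Gli1+ MuSCs, against 888, 455 and 262 CPM in Gli1- MuSCs (log2 fold change 0.42, SE 0.45). Hspd1 over Hspe1 was 1.15 to 1.32 in Gli1+ MuSCs, against 1.13, 0.87 and 2.40 in Gli1- MuSCs. Hspa9 (mortalin), the HSP70 of the import motor, was the steadiest member, with 255, 251, 268 and 324 CPM in Gli1+ MuSCs, against 302, 313 and 307 CPM in Gli1- MuSCs. Its highest library was 1.29 times its lowest. Only Gli1+ replicate 4 lay above the Gli1- libraries, and the log2 fold change was -0.16 (SE 0.28). Dnaja3, the mitochondrial HSP40, was not detected in Gli1+ replicate 1 or Gli1- replicate 2 and reached 84.6 CPM in Gli1- replicate 3.

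The co-chaperones did not share the order of the Hspa1 pair. Bag3, which links HSP70 to small heat shock proteins and autophagy, had 1416, 1447, 1674 and 3281 CPM in Gli1+ MuSCs, against 1574, 1800 and 1627 CPM in Gli1- MuSCs (log2 fold change 0.23, SE 0.37). Stip1 (HOP), the adaptor that passes clients between HSP70 and HSP90, had 210, 211, 221 and 384 CPM in Gli1+ MuSCs, against 253, 254 and 191 CPM in Gli1- MuSCs (log2 fold change 0.14, SE 0.33). In both genes Gli1+ replicate 4 stood alone at the top. Bag1, an exchange factor of HSP70, averaged 61.4 ± 29.7 CPM in Gli1+ MuSCs and 34.7 ± 31.8 CPM in Gli1- MuSCs. Chordc1, a binding partner of HSP90, averaged 69.8 ± 42.8 CPM in Gli1+ MuSCs and 74.1 ± 36.3 CPM in Gli1- MuSCs.

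The factors that bind heat shock elements were low. Hsf1 had 76.6, 48.6, 46.6 and 43.3 CPM in Gli1+ MuSCs, against 108, 43.3 and 37.8 CPM in Gli1- MuSCs (log2 fold change -0.23, SE 0.66), with Gli1- replicate 1 the highest. Hsf2, a related factor of development, had 17.2, 39.2, 6.36 and 20.4 CPM in Gli1+ MuSCs, against 27.2, 16.4 and 43.1 CPM in Gli1- MuSCs (log2 fold change -0.48, SE 1.66). Its highest library was 6.79 times its lowest, the widest range of any member with reads in all libraries. HSF1 is controlled largely at the level of its protein, which these data do not measure.

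The 8 CCT subunits form a ring in fixed numbers, and none passed the test, with log2 fold changes between -0.13 and 0.28. Their summed level was 1590, 1527, 1988 and 2790 CPM in Gli1+ MuSCs, against 1740, 1938 and 1916 CPM in Gli1- MuSCs. It was lowest in Gli1+ replicates 1 and 2 and Gli1- replicate 1, in which the inducible HSP70 pair was highest, and it was highest in Gli1+ replicate 4. Tcp1, the founding subunit, averaged 233 ± 75.9 CPM in Gli1+ MuSCs and 196 ± 17.9 CPM in Gli1- MuSCs. Cct4 averaged 328 ± 116 CPM in Gli1+ MuSCs and 280 ± 31.3 CPM in Gli1- MuSCs, and Cct7 averaged 206 ± 126 CPM in Gli1+ MuSCs and 190.4 ± 8.8 CPM in Gli1- MuSCs. In these 3 subunits the SD was wider in Gli1+ MuSCs, where replicate 4 was the highest library. Cct3 averaged 172 ± 23.7 CPM in Gli1+ MuSCs and 178 ± 110 CPM in Gli1- MuSCs. Cct6a averaged 193 ± 32.9 CPM in Gli1+ MuSCs and 171 ± 20.6 CPM in Gli1- MuSCs. Cct8 averaged 213 ± 63.6 CPM in Gli1+ MuSCs and 176 ± 58.8 CPM in Gli1- MuSCs. Cct2 and Cct5 had the highest levels per kilobase, while in mean CPM Cct4 was close to them. Cct2 had 264, 238, 404 and 406 CPM in Gli1+ MuSCs, against 319, 439 and 276 CPM in Gli1- MuSCs (means of 328 ± 89.7 CPM in Gli1+ and 345 ± 84.5 CPM in Gli1- MuSCs). Cct5 had 262, 239, 208 and 491 CPM in Gli1+ MuSCs, against 271, 399 and 316 CPM in Gli1- MuSCs (means of 300.4 ± 129 CPM in Gli1+ and 329 ± 65.1 CPM in Gli1- MuSCs). For both, the libraries of the groups were interleaved. Although the ring holds its subunits in equal number, levels per kilobase of exon ran from 27.5 CPM for Cct3 to 131 CPM for Cct2 over the union of exons, and from 51.3 to 171 CPM over the longest transcript.

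**Figure D4:**
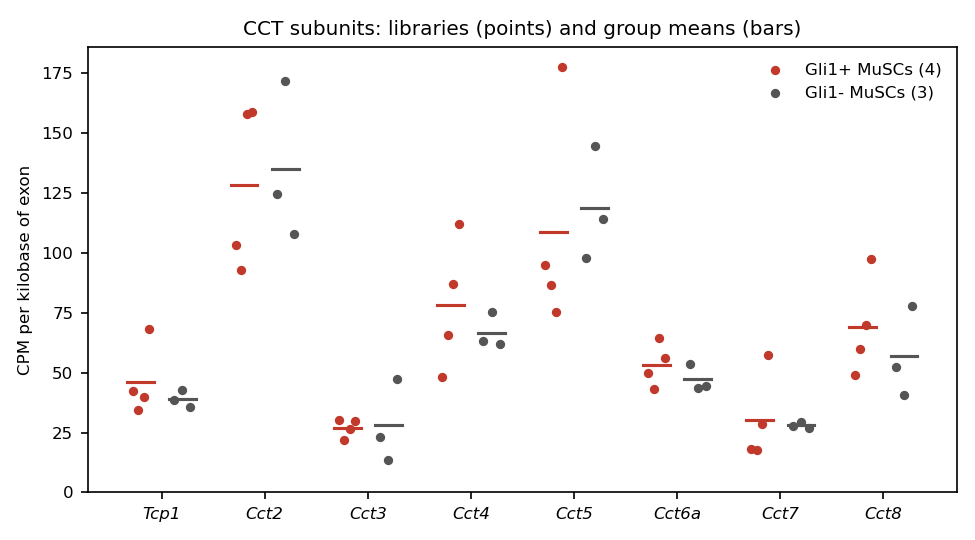
CPM per kilobase of exon (vertical axis) of the 8 CCT subunits in each library (points) with group means (bars), Gli1+ MuSCs (red) left of Gli1- MuSCs (gray). The groups overlap for every subunit, and Cct2 has the highest mean, 131 CPM per kilobase over the 7 libraries.

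Per kilobase of exon, over all 7 libraries, the order of levels was Hspa1b (12349 CPM), Hspa1a (10801 CPM), Hspb1 (4588 CPM), Dnajb1 (2647 CPM), Hspa8 (2205 CPM), Hsp90ab1 (1653 CPM) and Hsp90aa1 (1551 CPM). Within each library the order of neighbors was the same in 7 of 7 libraries, except that Hsp90ab1 was above Hsp90aa1 in 4 of 7. With the longest transcript as the length, Hspa8 was at 3003 CPM per kilobase and above Dnajb1, at 2830 CPM per kilobase. At the other end were Hspb6 (1.82 CPM), Hsf2 (2.53 CPM) and Hspa14 (2.76 CPM). Reads of Hspa8, Hsp90aa1, Hspd1 and Hspb1 are uncertain as well, since 43.5%, 51.4%, 50.1% and 52.3% of their 31-base stretches also occur in other annotated genes.

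The order of the libraries was compared among the 39 members with at least 5 reads in all 7 libraries. Hspa1b was highest in Gli1+ replicate 2, Gli1- replicate 1 and Gli1+ replicate 1. These same 3 libraries were the highest for 11 of the 39 members (28.2%), Hspa1b, which defines the order, included, and for 10.2% of the 3697 genes that meet the same minimum. The 11 are Hspa1a, Hspa1b, Hspa8, Hsph1, Hsp90aa1, Dnaja1, Hsp90b1, Hspd1, Hspe1, Hspb1 and Hsf1. Some met this narrowly. The lowest of the 3 libraries was 1.02 (Hspb1), 1.03 (Hspd1), 1.04 (Hsf1) and 1.08 (Hspa8) times the highest of the remaining libraries. For Hspa1b this was 1.72, for Hspa1a and Dnaja1 1.54, and for the others of the 11 it was 1.16 to 1.35. Hspa1a does not count independently, since its reads are hard to divide from those of Hspa1b. Dnajb1, Hsp90ab1, Bag3 and the CCT subunits are not among them. The pattern was seen after the values, so no test is given. Over the 39 members the SD of log2 CPM across libraries had a median of 0.51, beside 0.63 over all 3697 genes, and the highest library was over 2 times the lowest for 28 members.

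**Figure D5:**
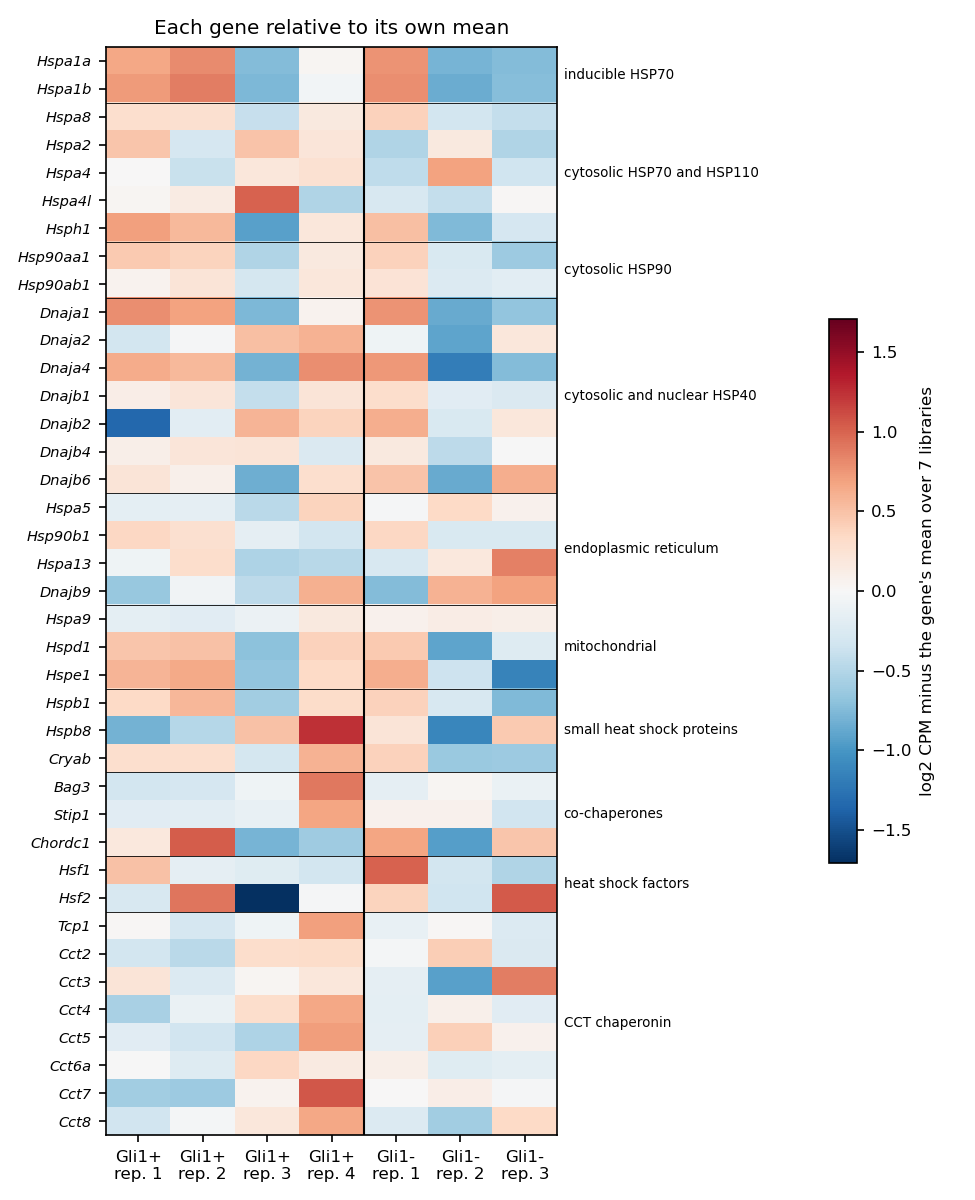
Log2 CPM of each of 39 members minus its own mean over 7 libraries (color, red above and blue below the mean), in rows by role, with the 4 Gli1+ libraries left of the 3 Gli1- libraries. Hspa1a, Hspa1b, Hsph1, Dnaja1, Hspd1 and Hspe1 are above their means in Gli1+ replicates 1 and 2 and Gli1- replicate 1. All of these but Hspa1b are above their means in Gli1+ replicate 4 too, as are all 8 CCT subunits.

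Other measures moved with this order of libraries. The summed level of 8 endothelial markers was 159, 180, 1976 and 564 CPM in Gli1+ MuSCs, against 169, 1424 and 455 CPM in Gli1- MuSCs, lowest in the 3 libraries with the most Hspa1b. The sums of 9 pericyte and smooth muscle markers (440 to 2666 CPM in Gli1+ MuSCs, 334 to 1489 CPM in Gli1- MuSCs), 6 tenocyte markers (25.9 to 1172 CPM in Gli1+, 19.98 to 717 CPM in Gli1-), 7 Schwann and glial markers (0 to 322 CPM in Gli1+, 16.9 to 182 CPM in Gli1-) and 8 immune markers (0 to 228 CPM in Gli1+, 19.98 to 197 CPM in Gli1-) were lowest in those libraries too. The 12 markers of fibro/adipogenic progenitors and fibroblasts summed to 3111, 4427, 8194 and 11544 CPM in Gli1+ MuSCs, against 3278, 5770 and 4489 CPM in Gli1- MuSCs, again lowest in the same libraries. The 14 mature myofibre markers summed to 152 to 390 CPM in Gli1+ MuSCs and to 77.3 to 215 CPM in Gli1- MuSCs. Of the 12 MuSC markers, Pax7, Myf5, Vcam1 and Chodl were highest in the 3 libraries with the most Hspa1b, and Cd34 was lowest there. The other MuSC markers and the sum of all 12 followed neither order. Pax7 had 554, 408, 261 and 403 CPM in Gli1+ MuSCs, against 544, 221 and 275 CPM in Gli1- MuSCs. Cd34 had 259, 303, 497 and 647 CPM in Gli1+ MuSCs, against 256, 682 and 356 CPM in Gli1- MuSCs. Of the defining markers, Ptprc (CD45) had reads in 1 Gli1+ and 0 Gli1- libraries (the gate also excluded CD45), Sox10 in 2 Gli1+ and 0 Gli1- libraries, and Cnn1 was at 0 in all 7. The cells were gated against CD31 and Sca1, and the genes of both had reads in all 7 libraries. Pecam1 (CD31) had 6.10, 4.51, 333 and 77.7 CPM in Gli1+ MuSCs, against 18.6, 433 and 169 CPM in Gli1- MuSCs. Ly6a (Sca1) had 17.1, 13.2, 165 and 51.6 CPM in Gli1+ MuSCs, against 14.5, 299 and 80.1 CPM in Gli1- MuSCs. Both were lowest in the 3 libraries with the most Hspa1b. The same 3 also had the most genes detected, 10016 and 9763 in Gli1+ replicates 1 and 2 and 10829 in Gli1- replicate 1, the next being 9622 in Gli1+ replicate 4. In bulk RNA a change in the number of cells of a type and a change of RNA per cell cannot be told apart, and the part of these markers in the differences between libraries was not tested.

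The immediate early genes, transcription factors that dissociation is known to switch on, took another large share. The 20 genes summed to 57070, 47525, 39946 and 32895 CPM in Gli1+ MuSCs, against 74402, 32719 and 47459 CPM in Gli1- MuSCs. None passed an adjusted p of 0.05 by edgeR, and the log2 fold changes, 16 of them negative and 4 positive, had a median of -0.33. Atf3, a stress-induced repressor, had 1940, 1582, 1763 and 1764 CPM in Gli1+ MuSCs, against 2049, 2608 and 2832 CPM in Gli1- MuSCs, so that every Gli1+ library lay below every Gli1- library (log2 fold change -0.50, SE 0.30, edgeR adjusted p = 1.00). Of the 20 genes, 1 (Atf3) was lower in every Gli1+ library and 0 were higher, beside 0.934% and 2.87% of all genes. Fosb, an AP-1 subunit, averaged 2628 ± 673 CPM in Gli1+ MuSCs and 3909 ± 1161 CPM in Gli1- MuSCs. The sum of the 20 genes was highest in the 3 libraries with the most Hspa1b, though Gli1+ replicate 2 was barely above Gli1- replicate 3. Fos, Jun and Junb were each highest in those 3 libraries, whereas Egr1, Atf3 and Fosb were not. Fos had 9479, 8492, 5508 and 4403 CPM in Gli1+ MuSCs, against 11207, 3199 and 5883 CPM in Gli1- MuSCs. Why they shared this order was not tested.

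Related lists of the chaperone network were also without a call by edgeR at an adjusted p of 0.05. Of 17 further co-chaperones of HSP70 and HSP90, 15 had positive log2 fold changes and 2 negative (median 0.33). Sugt1 (SGT1), an HSP90 adaptor, had 67.7, 74.5, 60.6 and 40.7 CPM in Gli1+ MuSCs, against 101, 123 and 128 CPM in Gli1- MuSCs, lower in every Gli1+ library (log2 fold change -0.95, SE 0.41, adjusted p = 1.00). Of these 17 genes, 1 (Sugt1) was lower and 1 was higher in every Gli1+ library, beside 0.934% and 2.87% of all genes. St13 (HIP), an HSP70 partner, averaged 185 ± 21.6 CPM in Gli1+ MuSCs and 126 ± 58.5 CPM in Gli1- MuSCs. Among 10 other HSP and BAG genes, 7 were above 0 and 3 below (median 0.31). There, Serpinh1 (HSP47), the collagen chaperone of the endoplasmic reticulum, averaged 1366 ± 390 CPM in Gli1+ MuSCs and 871 ± 319 CPM in Gli1- MuSCs. Hspa1l, a testis-enriched HSP70, averaged 338 ± 86.9 CPM in Gli1+ MuSCs and 267 ± 166 CPM in Gli1- MuSCs. Of 30 other J-domain genes, 18 were above 0 and 12 below (median 0.17), and the genes with the smallest p were Dnajc17, at 0 in all Gli1+ libraries and at 7.72, 17.7 and 0 CPM in Gli1- MuSCs, and Dnajc12, at 15.3, 0, 0 and 7.24 CPM in Gli1+ MuSCs and at 0 in Gli1- MuSCs.

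The 14 genes of prefoldin and CCT partners, which hand actin and tubulin to CCT, had 12 values above 0 and 2 below (median 0.53). Pfdn5, a prefoldin subunit, averaged 309 ± 160.0 CPM in Gli1+ MuSCs and 229 ± 33.2 CPM in Gli1- MuSCs. Txndc9, a CCT partner, averaged 56.5 ± 31.2 CPM in Gli1+ MuSCs and 28.2 ± 28.9 CPM in Gli1- MuSCs. Of 23 genes of the unfolded protein response, 8 were above 0 and 15 below (median -0.19). Pdia3, a disulfide isomerase, averaged 478 ± 113 CPM in Gli1+ MuSCs and 355 ± 44.2 CPM in Gli1- MuSCs. Xbp1, the factor spliced by IRE1, averaged 138 ± 60.4 CPM in Gli1+ MuSCs and 190 ± 18.7 CPM in Gli1- MuSCs. The 15 genes of mitochondrial protein quality control had 8 values above 0 and 7 below (median 0.13). Its genes with the smallest p were Atf5, a factor of the mitochondrial stress response, with 61.4 ± 60.3 CPM in Gli1+ MuSCs and 28.4 ± 11.3 CPM in Gli1- MuSCs, and Clpx, a matrix unfoldase, with 33.3 ± 11.7 CPM in Gli1+ MuSCs and 53.9 ± 4.4 CPM in Gli1- MuSCs. Of those 15 mitochondrial genes, 1 (Clpx) was lower in every Gli1+ library and 0 were higher, beside 0.934% and 2.87% of all genes. The 14 subunits of the 20S proteasome had 9 values above 0 and 5 below (median 0.23). Psma4 averaged 95.9 ± 30.6 CPM in Gli1+ MuSCs and 60.4 ± 35.3 CPM in Gli1- MuSCs. Psmb4 averaged 115 ± 86.2 CPM in Gli1+ MuSCs and 79.2 ± 18.3 CPM in Gli1- MuSCs.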

How the data were processed

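RNA-seq libraries were made from 1 ng of total RNA per sample. For 4 Gli1+ and 3 Gli1- libraries, the authors deposited unnormalized read counts. The study's methods give STAR, GRCm38, tximport and DESeq2, whereas CASAVA and HISAT2 2.0.5 are listed in the submitters' processing notes, so which aligner made the counts is not settled. The strand of counting is not stated. Groups were taken from the sample labels. The authors' table of fold changes and p-values, and 14 columns of normalized values (7 in each of 2 tables), were not used.

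Counts were analyzed with edgeR 4.0.16 in R 4.3.3 (TMM scaling, quasi-likelihood fit with robust estimation, two-sided). A minimum of 5 reads in 2 or more libraries left 11134 genes and all 45 members, and p-values were adjusted over all 11134 by the Benjamini-Hochberg method. Intervals of log2 fold changes are at 95%. Symbols were matched by gene ID, and 40 of 13280 rows, which hold an ID without a symbol, stayed in the fit under their IDs. Ddit3 matches more than 1 row and was left out of its list. P-values measure only the spread between these samples. Levels per kilobase use the union of GENCODE exons on GRCm38, and promoters come from RefSeq. The test was tried first on simulated counts with a smaller dispersion (spread between replicates beyond counting noise) than the common 3.11 of these data. That trial therefore does not give the power of the test here.

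The members, lists and tests were chosen with earlier results of these data known. Values in every library are printed for members at an unadjusted p under 0.05 or with groups that do not overlap (there were 0), the 2 members of each role with the highest mean CPM, the stress-inducible members and both HSF genes. Hspa4, Hspa9, Dnaja4, Hspb6 and Hspb8 are shown in this way too and were chosen after their values were seen. CCT subunits are given by mean and SD, and the related lists of genes by the 2 genes with the smallest p. The lists of cell type markers are given by their sums instead. Single markers, and Fos, Jun, Junb and Egr1, were not chosen by p. Alternatives were DESeq2 1.42.0, limma-voom (limma 3.58.1), other scalings and filters, a replicate block and leaving out each library in turn.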

Additional observations from a re-analysis of the deposited data

Results flagged for a closer look

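In the 4 Gli1+ libraries, 56 values (the levels of 45 members, their total and the sums by role) were checked for a library far from the rest, by the gap of the highest or lowest library to its neighbor as a share of the group's whole range. Chance gives such a gap in about 1 in 20 groups, and 6 values had one above the 95% critical value of Dixon's ratio. The 56 values are not independent, since the sums reuse the members and all come from the same 4 libraries. Bag3, for one, gave 3281 of the 3811 CPM of the co-chaperones in Gli1+ replicate 4. The 6 can therefore not be weighed against that rate. Gli1+ replicate 4 stood apart at the high end for Bag3 (gap 0.862 of the range), for Stip1 (0.937) and for the summed co-chaperones (0.881). Gli1+ replicate 3 stood apart at the low end for Hspd1 (0.883) and for the summed HSP40 genes (0.902). Gli1+ replicate 1 stood apart at the high end for Hsf1 (0.841). The Gli1- group of 3 is too small for this check.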

How the results depend on the processing

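No member passed an adjusted p of 0.05 under any alternative run, and the lowest adjusted p of a member was 0.23, without Gli1- replicate 1. Intervals were wide, and a missed threshold does not show equal levels. The longest transcript in place of the union of exons changed levels per kilobase but no fold change.

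DESeq2 called 66 genes of the table and 0 members, and put 1 member, Hspb6, at an unadjusted p under 0.05 (adjusted p = 0.54), which entered the test only through 2 Gli1+ libraries. With library totals as the scaling, 1 member, Hspa9, was lower in every Gli1+ library, as were 1.23% of all genes. Leaving out each library gave 0 to 3 members higher at an unadjusted p under 0.05, the 3 being Hspa14, Dnaja4 and Cryab without Gli1- replicate 1, a setting in which 11.4% of all genes were higher at that p. It gave 0 to 2 members higher in every Gli1+ library (2 without Gli1- replicate 1, against 14.7% of all genes), 0 to 3 lower in every one (3 without Gli1+ replicate 4: Hspa5, Hspa9 and Cct5, against 1.81% of all genes), and 0 to 2 genes of the table called (2 without Gli1- replicate 1). Leaving out Gli1- replicates 2 and 3 together, chosen after seeing the data, left 3 members higher (Hspa2, Hspa4 and Dnajb9) and 8 lower, beside 8.72% and 18.4% of all genes, each against 1 Gli1- library that stands for its group.

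Some log2 fold changes changed sign. With library totals they were -0.00171 for Hsp90ab1, -0.0234 for Dnajb1, -0.00206 for Stip1 and -0.0565 for Cct7, and with upper-quartile scaling -0.0117 for Dnajb1 and -0.00589 for Hsp90b1. With limma-voom they were 0.11 for Hspa4, 1.18 for Dnajb5, -0.19 for Hspb8 and -0.19 for Cct7. The cause was not tested. Over the libraries left out in turn, values ran from -0.15 to 0.36 (Bag3), -0.21 to 0.14 (Cct2), -0.38 to 0.55 (Cct3), -0.00962 to 0.40 (Cct4), -0.49 to 0.0341 (Cct5), -0.40 to 0.30 (Cct7), -0.57 to 0.22 (Chordc1), -0.0145 to 0.27 (Dnajb1), -0.23 to 1.23 (Dnajb11), -0.44 to 0.0691 (Dnajb2), -0.000368 to 0.29 (Dnajb4), -0.91 to 0.63 (Dnajb5), -0.55 to 0.0366 (Dnajb6), -0.49 to 0.40 (Hsf1), -0.0153 to 0.33 (Hsp90b1), -0.24 to 0.43 (Hspa4), -0.15 to 0.65 (Hspb8), -0.13 to 0.23 (Stip1) and -0.016 to 0.37 (Tcp1). From without Gli1- replicate 2 to without Gli1- replicate 1 they ran from 0.11 to 1.13 for Hspa1b, 0.0984 to 1.08 for Hspa1a, 0.0918 to 1.09 for Dnaja1 and 0.23 to 1.36 for Dnaja4. The median of all genes moved from 0.30 to 0.93 with limma-voom, 0.52 with the block, 0.63 without Gli1- replicate 1, 0.16 without Gli1- replicate 2, 0.02 with at least 5 reads in all libraries and -0.04 without Gli1- replicates 2 and 3. The median of the members moved from 0.17 to 0.14 with at least 5 reads in all libraries and 0.27 without Gli1- replicate 1. It was 0.03 without Gli1+ replicate 4 and -0.08 without Gli1- replicates 2 and 3.

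No source states that same-numbered libraries share mice, and the numbers were not taken to pair the samples, since not every pair correlated above 0.1. Deviations from the group means correlated at 0.24, -0.11 and 0.07 between same-numbered libraries. Gli1- replicates 1 and 3 correlated best with the Gli1+ library of their own number, and Gli1- replicate 2 with Gli1+ replicate 3 (0.13). With a replicate block edgeR called 0 genes and 0 members, and the log2 fold changes that changed sign were 1.14 for Dnajb5, -0.11 for Hspb8, -0.14 for Bag3, -0.11 for Stip1, 0.0106 for Chordc1, -0.00361 for Tcp1, 0.0853 for Cct3, -0.0315 for Cct4 and -0.42 for Cct7.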
